A study of Salix matsudana with 3 samples.

Results

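The miR156 family was followed through both kinds of data from Salix matsudana, the Chinese willow: small RNA reads of its guide and passenger arms, and degradome reads at the messages it cleaves. Members were taken by name, as every small RNA entry and every degradome site called miR156 or miR157. This gave 4 of 205 small RNA entries and 24 of 981 degradome sites, and no entry in these rows was called miR157. Roots and stems of 30-day-old plants were used throughout. The untreated library came from plants not exposed to salt, and the salt library from plants kept for 2 days in 100 mmol per litre NaCl. A degradome library, which reads the 5′ ends of cut messages, was prepared from the mixed RNA of both and so cannot compare them. Each condition had 1 library, so no difference between them has a replicate check or a test, and salt cannot be told apart from the 2 days that passed. In whole roots and stems, fewer cells that make a miRNA and less of it per cell cannot be told apart.

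miR156 is among the most conserved plant miRNAs and keeps plants in the juvenile phase. Its guide strand, cut from the 5p arm of the hairpin, directs cleavage of messages for SPL (squamosa promoter-binding-like) transcription factors, while the 3p strand opposite is usually the passenger that is discarded. In Arabidopsis, miR156 declines with age, SPL factors accumulate, and these switch on miR172, which represses AP2-like floral repressors.

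The 4 entries form 2 pairs, each with a 5p and a 3p strand listed under 1 precursor index. They are shown here because the guides differ by a shift of their first base and because the strands behaved differently between libraries. The prefixes ghr, ptc and mtr stand for cotton, poplar and Medicago, where the matching known miRNA was named. The sequences are written 5′ to 3′ as DNA letters, as the deposited table gives them, with bases 2 to 8, the seed, in capitals.
ghr-miR156a_R+1: tGACAGAAgagagtgagcact
mtr-miR156i-3p_3ss11T-13TC22TG: tGCTCACTtcccttctgtcagc
ptc-miR156g_R+1: tTGACAGAagatagagagcact
mtr-miR156h-3p_2ss6TC9TG: gCTCTCTAgtcttctgtcatc
The suffixes that follow the arm or letter are left out from here on.

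The guides ghr-miR156a, of 21 bases, and ptc-miR156g, of 22 bases, aligned over 21 bases once the first base of ptc-miR156g was set aside. Of these 21 bases 19 were identical, and the substitutions were G11T and T14A, counted from the 5′ end of ghr-miR156a. The extra first base moves the seed of ptc-miR156g by 1 position, so the guides do not share a seed by position although their sequences overlap. None of the 4 seeds was found at bases 2 to 8 of any other listed entry. Predicted pairing of the strands was strongest within each precursor index. ghr-miR156a and mtr-miR156i-3p formed 18 base pairs at -27.2 kcal per mol, with 2 unpaired bases at the 3′ end of each strand, the overhang that Dicer-like enzymes leave. ptc-miR156g and mtr-miR156h-3p also formed 18 pairs, at -29.7 kcal per mol, with 3 unpaired bases at the 3′ end of the guide, 2 at that of the passenger, and the extra first base of the guide unpaired. Swapping partners gave 16 pairs at -23.9 and 17 pairs at -21.0 kcal per mol.

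Levels are reads for each 1000000 reads of all 205 listed entries (RPM). The listed entries held 4622984 untreated reads and 734026 salt reads, so the untreated library was 6.30 times as deep, and a read was worth 0.216 RPM there and 1.36 RPM under salt. Intervals given with levels, ratios and shares are exact 95% intervals and cover counting error of reads only, since there was 1 library for each condition. They may be too narrow even for that, because PCR copies are not independent molecules.

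The passenger strand mtr-miR156i-3p dominated the family in both libraries. It had 5727 untreated reads (1239 RPM) and 9123 salt reads (12429 RPM), more reads from the shallower library. It made up 78.8% (77.8 to 79.7) of the family's untreated reads and 96.8% (96.4 to 97.1) of its salt reads. In the order of all listed entries it moved from place 30 to place 13. Its level under salt was 10.03 times the untreated level (9.71 to 10.4).

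The guide of the same pair, ghr-miR156a, had 426 untreated reads (92.1 RPM) and 132 salt reads (179.8 RPM). Its level under salt was 1.95 times the untreated level (1.59 to 2.38), just under the 2-fold threshold used for a call. Against this, the guide ptc-miR156g had 653 untreated reads (141 RPM) and 112 salt reads (153 RPM), a ratio of 1.08 (0.876 to 1.32) whose interval includes no difference. Its passenger mtr-miR156h-3p had 463 untreated reads (100.2 RPM) and 59 salt reads (80.4 RPM), a ratio of 0.803 (0.601 to 1.05) whose interval also includes no difference. Thus the levels of ghr-miR156a, ptc-miR156g and mtr-miR156h-3p stayed within 80.4 to 179.8 RPM while that of mtr-miR156i-3p lay far above them.

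**Figure D1:**
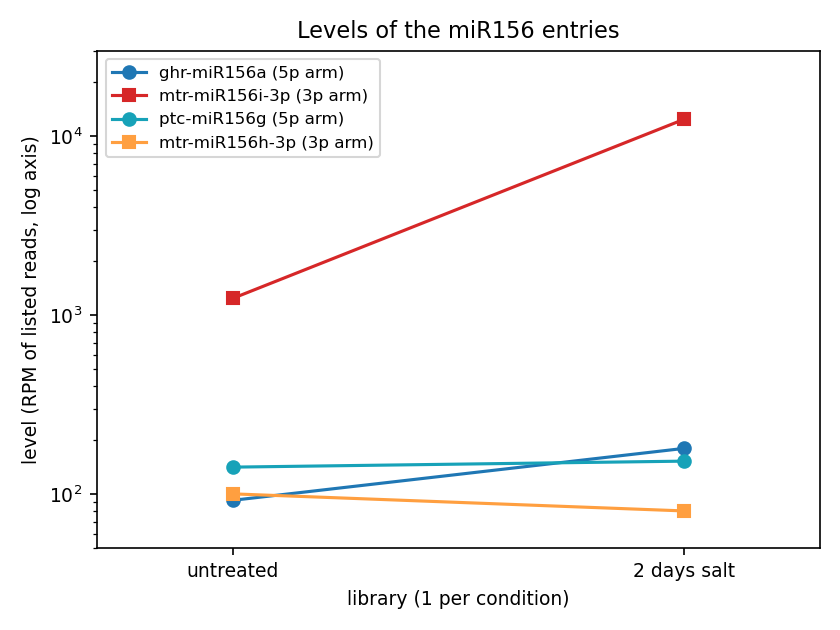
Levels of the 4 miR156 entries (vertical log axis, RPM of listed reads) in the untreated and the salt library, 1 library each, with circles for 5p and squares for 3p strands. mtr-miR156i-3p stands at 1239 and 12429 RPM, and the other 3 entries lie between 80.4 and 179.8 RPM in both libraries.

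In the untreated library the order was mtr-miR156i-3p, ptc-miR156g, mtr-miR156h-3p and ghr-miR156a. The last 2 did not differ beyond counting error, with 6.37% (5.82 to 6.96) and 5.86% (5.33 to 6.43) of the family's reads, while ptc-miR156g had 8.98% (8.34 to 9.66). In the salt library the order was mtr-miR156i-3p, ghr-miR156a, ptc-miR156g and mtr-miR156h-3p. There ghr-miR156a and ptc-miR156g did not differ beyond counting error, with 1.40% (1.17 to 1.66) and 1.19% (0.979 to 1.43), and mtr-miR156h-3p had 0.626% (0.477 to 0.807). Between the guides, ghr-miR156a held 39.5% (36.6 to 42.5) of the untreated guide reads and 54.1% (47.6 to 60.5) of the salt guide reads. The ratio of ghr-miR156a to ptc-miR156g reads was 1.81 times as high under salt (1.35 to 2.41) and does not depend on how the libraries are scaled.

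Summed over both guides, the 5p arm came to 233 RPM untreated and 332 RPM under salt, a ratio of 1.42 (1.23 to 1.64) or 0.51 on the log2 scale of RPM + 1. That direction turned to -0.47 when the 5 most abundant entries were left out of the library totals. The 3p arm came to 1339 RPM untreated and 12509 RPM under salt, a ratio of 9.34 (9.05 to 9.65) or 3.22 log2. This sum rests on mtr-miR156i-3p, and without the most abundant entry of each arm the log2 ratio of the 3p arm was -0.31. As a whole, the family made up 0.157% of untreated reads and 1.28% of salt reads, a log2 ratio of 3.03, which was 0.43 without those entries.

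A log2 ratio was read as a call when an entry had a mean level of at least 10 RPM and differed at least 2-fold on RPM + 1. All 4 miR156 entries reached the minimum, 1 was higher in the salt library, none was lower, and no test stands behind these counts. Over all 115 entries at the minimum, 32.2% were higher and 13.0% lower, so 1 of 4 is near the background. The median log2 ratio was 0.53 over the miR156 entries and 0.33 over all 115. By log2 ratio, mtr-miR156i-3p (3.33) held place 10 from the top of the 115, ghr-miR156a (0.96) place 39, ptc-miR156g (0.11) place 70 and mtr-miR156h-3p (-0.31) place 83. Under 6 ways of scaling the libraries, mtr-miR156i-3p ran from 2.35 to 3.55 and stayed past 2-fold in all 6. ghr-miR156a ran from -0.01 to 1.18 and passed 2-fold in 1 scaling, that without possible rRNA or tRNA fragments. ptc-miR156g ran from -0.86 to 0.33 and changed sign, and mtr-miR156h-3p ran from -1.29 to -0.10, below 0 in all 6 and past 2-fold only without the 5 most abundant entries. These shifts moved all entries together: the median of all tested entries lay 1.08 log2 lower without the 5 most abundant entries, from 0.33 to -0.74, and 0.21 higher without possible fragments. Relative to that median, mtr-miR156i-3p stood between 2.99 and 3.09 log2 above it in every scaling.

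**Figure D2:**
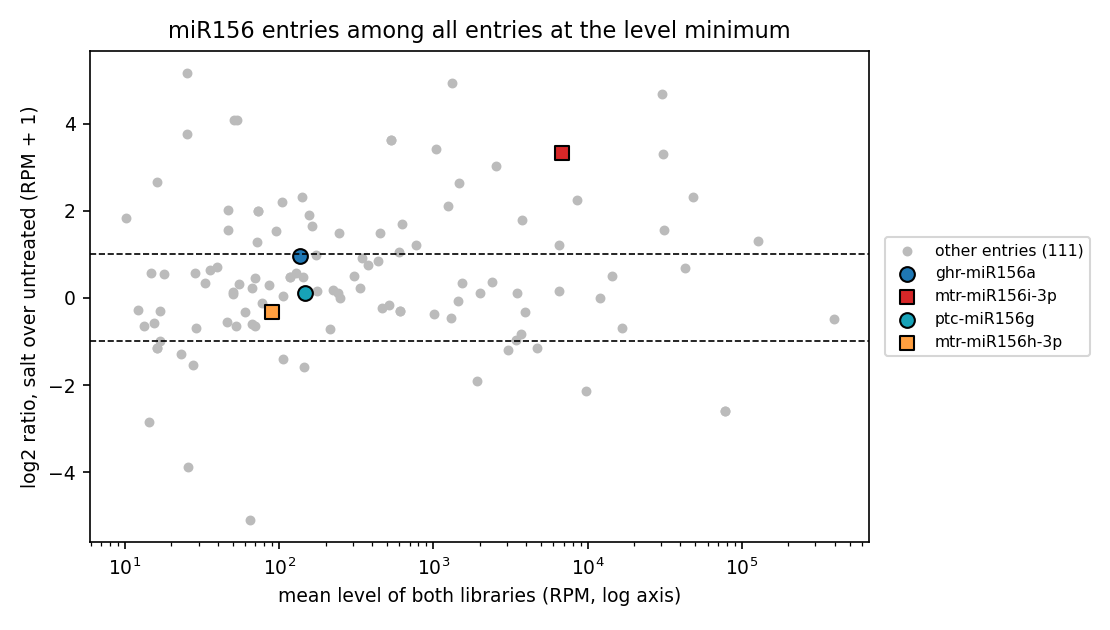
Log2 ratio of the salt over the untreated library (vertical axis, RPM + 1) against the mean level of both libraries (horizontal log axis) for the 115 entries at the level minimum, with dashed lines at 2-fold. mtr-miR156i-3p lies at 3.33 among the more abundant entries, and the other 3 miR156 entries lie between the dashed lines.

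**Figure D3:**
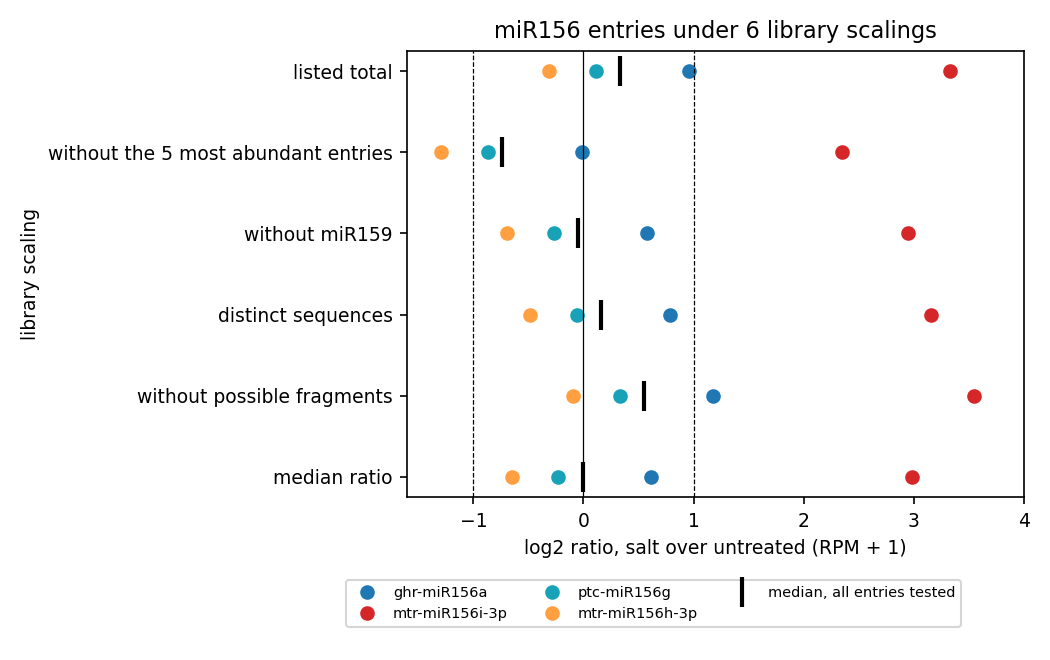
Log2 ratio of each miR156 entry (coloured points) under 6 scalings of the libraries (rows), with the median over all tested entries as a black bar and dashed lines at 2-fold. The points shift together with the bar, and mtr-miR156i-3p stays right of the 2-fold line in every row.

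The ratio of 3p to 5p reads within a library needs no scaling, so it compares the strands directly. In the first pair, mtr-miR156i-3p had 13.4 reads for each read of ghr-miR156a untreated and 69.1 under salt. The ratio was thus 5.14 times as high under salt (4.21 to 6.32). In the second pair the guide was the more abundant strand, and mtr-miR156h-3p had 0.709 reads for each read of ptc-miR156g untreated and 0.527 under salt. That change of 0.743-fold (0.521 to 1.05) includes no difference. The intervals of these changes in the first and the second pair do not overlap. The change of strand balance between libraries thus differed between the pairs by more than counting error. Over all members the ratio was 5.74 untreated and 37.6 under salt, 6.56 times as high (5.68 to 7.60).

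For 26 other pairs of numbered families, listed under 1 index with at least 10 reads in each strand and reads of both strands in both libraries, the same change was computed. Of all 28 pairs, 46.4% changed at least 2-fold in either direction, so a change of this size is common here. The first miR156 pair had the highest gain of 3p over 5p reads among the 28. In size, without regard to direction, 2 pairs changed more, both the other way. These were the miR166 pair ptc-MIR166j-p5 and ptc-miR166a (11.4-fold) and the miR160 pair ptc-miR160e-5p and ptc-miR160e-3p (6.47-fold). The interval of that miR160 pair, 3.99 to 10.6, holds that of the first miR156 pair, so their order is within counting error. Next in the gain of 3p reads came nta-miR164a and sly-miR164a-3p at 4.62-fold (4.22 to 5.07), whose interval overlaps that of the miR156 pair. Overlap was also seen for gma-miR171j-5p with tcc-miR171d (2.87 to 6.85) and mes-miR396c with ptc-miR396e-3p (3.91 to 4.56). The same held for ptc-miR160a with ptc-miR160b-3p (1.99 to 5.42), so the first place is not set beyond counting error. The second miR156 pair changed little, and 21 of the 26 other pairs changed at least as much. Among the 12 other pairs past 2-fold, the strand with fewer untreated reads gained in 10 and the strand with more gained in 2. In the first miR156 pair it was the strand with more untreated reads that gained. The untreated reads both name the strand with fewer reads and form the base of the change, which by itself favours its gain. The 12 pairs also include miR2916, a possible rRNA or tRNA fragment, and MIR6485, whose interval (0.0388 to 3.29) includes no difference. The first miR156 pair is thus not shown to be an exception. In 12 of the 26 other pairs the 3p strand was the more abundant in both libraries, and in 11 the 5p strand. The precursor columns were blank for the 4 miR156 entries, so a hairpin position is not given for them.

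**Figure D4:**
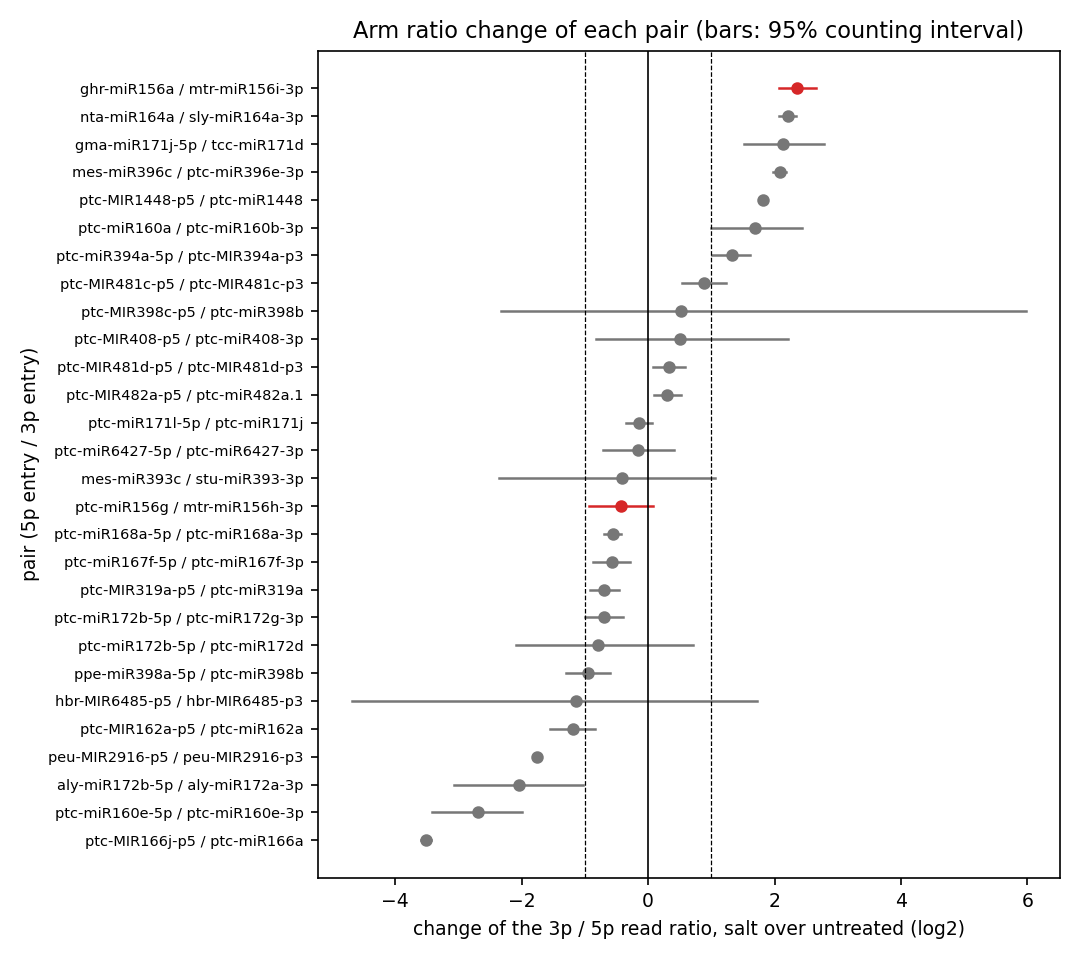
Change of the 3p to 5p read ratio between the salt and the untreated library (horizontal axis, log2) for 28 pairs of strands (rows), with 95% counting intervals as bars. The miR156 pairs are red, and the upper of them, ghr-miR156a with mtr-miR156i-3p, has the highest gain of 3p reads, at 2.36, while ptc-miR156g with mtr-miR156h-3p lies at -0.43.

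The arms differed in their degradome sites. All 20 sites listed for the guides lay in SPL messages, and none of the 4 sites listed for the passengers did. No SPL symbol was listed under any other miRNA family. The guides' sites carried 176 reads as listed, 119 under ghr-miR156a and 57 under ptc-miR156g, and the passengers' sites carried 4. Of the reads listed for the family, 97.8% thus lay at SPL sites. All 24 sites placed the cut opposite base 10 of the small RNA, counted from the end of the aligned range, where Argonaute proteins slice. The same held for 88.0% of all 981 sites.

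Several sites appear to list the same reads. The table's normalized signal, headed TPB, gave 52.7 units per read at some sites, 26.3 at others and 10.5 at the SPL6 sites, which are the largest value divided by 1, 2 and 5. The 5 sites in SPL6 messages carried identical reads and the value divided by 5. Sites in SPL3 and SPL12 carried identical reads and the value divided by 2, and so did both mtr-miR156i-3p sites. In the whole table, there were 204 sets of sites with equal entry, reads and a whole divisor above 1, and 104 of them had as many sites as the divisor. Counting each such set once left 38 reads for ghr-miR156a, 34 for ptc-miR156g and 3 for the passengers, of which 96.0% lay at SPL sites. The SPL6 sites, whether transcripts of 1 gene or of several, thus count as a single set below, and reads of the SPL3 and SPL12 sites cannot be assigned to either.

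The cuts listed for the guides lay 1 base apart in the same messages. At all 9 sites listed for both guides, the aligned ranges began at the same base, and the position listed for ptc-miR156g lay 1 base downstream of that for ghr-miR156a. The extra first base of ptc-miR156g, shown above, moves its base 10 by the same 1 position along the message. With each cut listed opposite base 10, this gap of 1 base follows from the alignment. Which guide made either cut was not tested. In the whole table, neighbouring positions in the same symbol under different entries of a family occurred 19 times, in 2 of 43 families with sites, and miR156 accounted for 9 of them as listed. With sites of equal reads counted once, those 9 came to 4. The other family was miR160, which targets auxin response factors.

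The share of reads at each of the neighbouring positions differed between messages. The roles mentioned are those of genes so named in other species, and may not hold for these willow messages. SPL6, known in Arabidopsis for a part in immunity, had 19 reads at position 1226 of a transcript and 3 reads at position 1227. The ghr-miR156a position thus held 86.4% (65.1 to 97.1) of its reads. SPL16, known in rice for its effect on grain size, had 12 reads at position 2928 and 8 reads at 2929, or 60.0% (36.1 to 80.9) at the ghr-miR156a position. For the reads shared by SPL3, in Arabidopsis the name of a promoter of flowering, and SPL12, the balance lay the other way. These had 5 reads at position 1929 of SPL3 and 11 reads at 1930, or 31.2% (11.0 to 58.7) at the ghr-miR156a position. A further SPL12 site had 1 read at position 2685 and 9 reads at 2686, or 10% (0.253 to 44.5). The interval of SPL6 overlaps neither that of the SPL3 and SPL12 reads nor that of the further SPL12 site, and that of SPL16 overlaps all others. With each set counted once, 37 reads lay at ghr-miR156a positions and 31 at ptc-miR156g positions, or 54.4% (41.9 to 66.5). The intervals again cover counting error only, since there was 1 degradome library.

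Another 2 SPL sites were listed for a single guide. SPL7 at position 1068 had 1 read under ghr-miR156a, and SPL12 at position 1473 had 3 reads under ptc-miR156g. In Arabidopsis, the gene named SPL7 regulates the copper response and lacks a miR156 site, whereas rice has a miR156-targeted gene of that name. The species was not given for SPL7 or for any other SPL symbol, so all of them are used only as names. At 1 read the SPL7 site is at the lowest count the table holds.

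**Figure D5:**
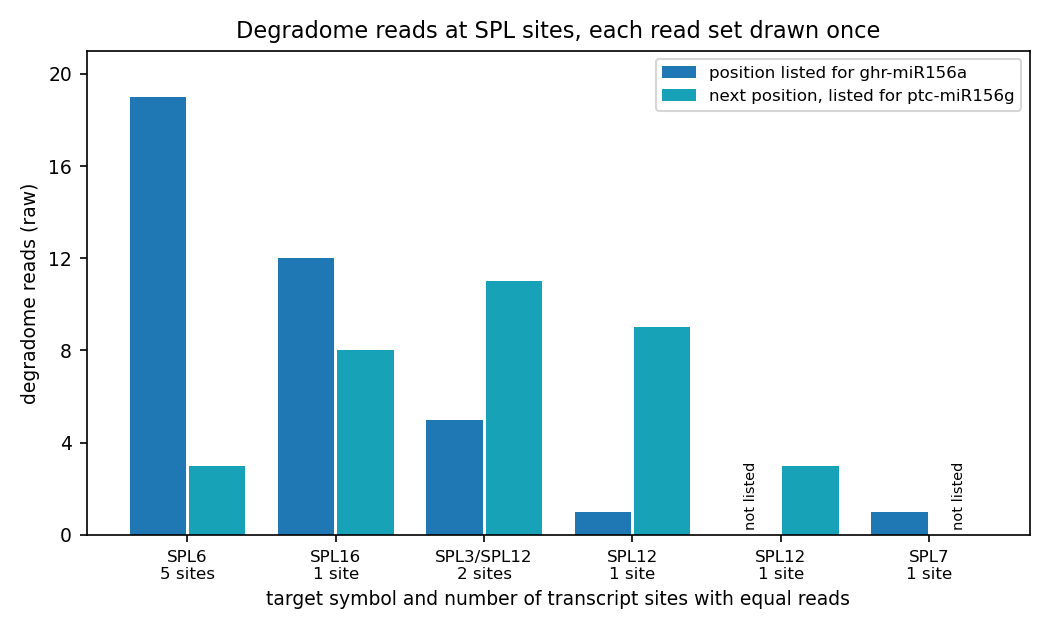
Degradome reads (vertical axis, raw reads) at the position listed for ghr-miR156a and at the next position, listed for ptc-miR156g, for each set of SPL sites with equal reads, drawn once. SPL6 has 19 and 3 reads, SPL16 has 12 and 8, the set of SPL3 and SPL12 has 5 and 11, and a further SPL12 site has 1 and 9.

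Alignment scores, on which lower is a better match and 4 is the highest listed, were 2 at all 10 sites of ghr-miR156a and from 3 to 4 at the 10 sites of ptc-miR156g. The better score did not go with more reads at every message. SPL6 and SPL16 had more reads at the better-scored position of ghr-miR156a. The SPL3 and SPL12 reads and the further SPL12 site, scored 2 against ghr-miR156a and 3 against ptc-miR156g, had more at the position of ptc-miR156g. The passengers' sites were scored 3 to 4 and had 1 read each. For mtr-miR156i-3p these were PGL3, a name used for a 6-phosphogluconolactonase, at position 1312, and GP1 at position 1697. For mtr-miR156h-3p they were CDSP32, a chloroplast thioredoxin-like protein, at position 494, and a message without a symbol at position 1260. Sites with a single read made up 24.8% of the whole table. mtr-miR156i-3p, the strand with the most small RNA reads of the family, thus had 2 degradome reads as listed, and 1 with its set counted once.

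Degradome reads at the SPL sites were near the middle of the table. The highest count was 19 reads, which put the family in place 21 of 43 by its best site. The median was 6.5 reads over the 20 SPL sites as listed, against 6 over all 981 sites. The level of a message, which was not measured, also sets how many cut ends can be read.

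The partner miRNA in phase change, miR172, was listed with 10 entries, 7 of them at the level minimum. Of these 3 were higher in the salt library, none was lower and 4 were neither, against 32.2% higher over all entries. This count pools both strands. The higher entries were ptc-miR172g-3p (1.21 log2) and the 5p strands ptc-miR172b-5p (1.89) and aly-miR172b-5p (2.66). The last had only 17 untreated and 21 salt reads. Over the 7 entries the median log2 ratio was 0.91, with a range from -0.27 to 2.66. Among 18 symbols of miR172 targets and genes known to act with or below SPL factors, 4 were listed in the degradome. The 18 symbols are not 18 genes, since they include other spellings, such as RAP2-7 and RAP2.7. Only sites aligned to a small RNA entry are listed, so a missing symbol says nothing about the level of that gene. AP2, a floral homeotic factor and repressor of flowering, had up to 510 reads under miR172 entries. RAP2-7 and TOE3, related AP2-like repressors, had up to 86 and 22 reads under miR172. TCP4, a leaf growth regulator, had 29 reads under miR319.

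By the summed level of all strands, the miR156 family held place 3 of 43 families at the level minimum in log2 ratio, at 3.03. That place rests on the passenger mtr-miR156i-3p. The summed guides had a log2 ratio of 0.51, and the family had 0.43 without the most abundant entry of each arm. The families nearest to miR156 in the ratio of all strands, over these 2 libraries, were miR160 (2.45), miR3630 (3.65) and miR2916 (2.24). Of these, miR2916 is among the possible rRNA or tRNA fragments left out in the scaling without them. So is miR6300, which held place 1 at 4.68. The 2 entries of miR3630 listed equal reads, 360.5 untreated and 720.5 under salt each. A likeness over 2 libraries is a single difference and holds no more than that.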

How the data were processed

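Small RNA reads of 1 untreated and 1 salt library and degradome reads of 1 library of mixed RNA were used. Per the labels' protocols, total RNA was column-purified and treated with DNase, and small RNA libraries followed the Illumina protocol. For trimming, mapping and calling, any tools are not given in the sources used here. Estimated counts per mature sequence, some with fractions but whole for the miR156 entries, were deposited by the authors as raw values, per the file headers. The degradome values are raw read counts per site, an alignment score from 0 to 4 and a signal headed TPB, per the file headers.

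Estimated counts were divided by each library's total over 205 entries and multiplied by 1000000. Log2 ratios used a pseudocount of 1 RPM, a level minimum of 10 RPM and a threshold of 2-fold. Rounded counts gave exact conditional binomial, odds ratio and Clopper-Pearson 95% intervals (scipy 1.17.1, Python 3.11.15). The interval code was tested on simulated data. Strands were paired by precursor index, not by family, because arms without a suffix are ambiguous in other families. Names without an arm counted as 5p in miR156. Duplexes were predicted with RNAduplex (ViennaRNA 2.7.2). TPB divisors were called whole within 0.001, which held for 80.5% of sites.

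The members, lists and tests were chosen with earlier results of these data known. All miR156 entries and SPL sites are named, with the other sites of the family, 18 fixed pathway symbols and the 3 families nearest in ratio. Other strand pairs, and miR160 as the other family with neighbouring positions, were named after their values were seen. Alternatives covered 6 scalings, pseudocounts, level minimum, threshold, alignment score and degradome reads.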

Additional observations from a re-analysis of the deposited data

How the results depend on the processing

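The log2 ratio of the family sum was 2.05 without the 5 most abundant entries in the totals, 2.65 without miR159, 2.86 with distinct sequences, 3.25 without possible fragments and 2.69 with the median ratio. In the same order, that of the 3p sum was 2.25, 2.84, 3.05, 3.44 and 2.88. That of the 5p sum turned to -0.47 without the 5 most abundant entries and was 0.13 without miR159, 0.73 without possible fragments and 0.17 with the median ratio. Without the most abundant entry of each arm the family sum was 0.43, the 5p sum 0.96, the 3p sum -0.31 and the change of the arm ratio -1.28, which then compares strands of different pairs. Entries called higher were 2 at 1.5-fold and 2 without possible fragments, and 1 was called lower without the 5 most abundant entries. SPL sites numbered 10 at a score of at most 2 and 12 at 5 or more reads. All reads (100%) lay at SPL sites under each of these and at 2 or more reads. The other 37 recomputed values stayed within counting error, or within 1.5 times for counts, of the value reported. Several of these could not change, so the count does not measure robustness. No entry was called miR157, and the family's sequences and sites were already distinct. All its entries also had a mean level above the raised minimum of 50 RPM. Depth limits the precision for mtr-miR156h-3p, with 59 salt reads, and for the degradome sites, with at most 19 reads each. No paired analysis was possible because each condition had 1 library.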
